A study of Mus musculus with 107 samples.

Results

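Fetal bovine serum (FBS) at 1% was compared with spontaneous differentiation (SPONT) of neural progenitor cells (NPC), using every library whose title names one of these conditions: 4 of 1% FBS and 4 of SPONT, 8 of the 107 libraries of the series. The NPC were made by neural induction of a mouse embryonic stem cell line of C57BL/6 background that carries the RiboTag allele, in which the ribosomal protein Rpl22 bears an HA tag, so RNA could be pulled down with the tagged ribosomes and sequenced. SPONT cultures were kept for 4 days with the mitogens EGF and FGF reduced to 1 ng/ml, from 100 ng/ml before. 1% FBS cultures were kept for the same 4 days in that same low-mitogen medium with FBS at 1% by volume, so serum is the only labelled difference between the groups. The study added 1% FBS, like CNTF, to promote differentiation into astrocytes, and the comparison asks which ribosome-bound RNAs differ when a little serum is present. All cells descend from 1 line. The study states that its in vitro experiments had independent biological replicates, but the labels do not say whether these replicates were separate cultures. The p-values therefore measure the spread between these libraries, which may be technical.

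Serum is the liquid left when blood has clotted. It holds albumin, lipoproteins with their cholesterol, lysophospholipids such as LPA and S1P, hormones, transferrin, retinol and growth factors including TGF-beta and BMP family members. NPC exposed to serum or BMP are known to take up an astrocyte fate marked by Gfap at the expense of oligodendrocyte and neuronal fates. In many cell types serum also raises immediate early genes and, through the actin-sensing SRF and MRTF pathway and the YAP and TEAD pathway, contractile and matrix genes.

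Total counts per library ran from 62174188 to 76772832 (median 70081380) in SPONT and from 61590713 to 90483031 (median 76582690) in 1% FBS, and the 10 most abundant genes took 10.5–13.6% and 8.4–13.3% of them. Over log2 levels of all genes tested, the first principal component held 49.4% of the variance and set all 1% FBS libraries (25.1 to 40.8) apart from all SPONT libraries (-40.3 to -18.2). The second held 17.8% and was set mainly by SPONT replicate 2, at -42.2 against 10.6 to 29.5 for the other SPONT libraries. That library correlated with its group at 0.978 to 0.985, and the other 3 SPONT libraries correlated with each other at 0.988 to 0.994. Results are therefore also given without SPONT replicate 2 where that changes them.

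**Figure D1:**
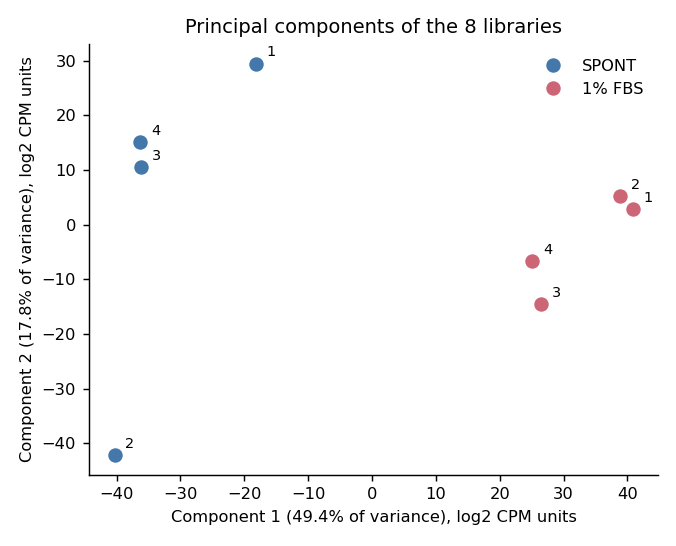
Principal components of the 8 libraries, with the replicate number beside each point; the horizontal axis is the first component (49.4% of the variance) and the vertical axis the second (17.8%), both in log2 CPM units. The groups separate along the first component, and SPONT replicate 2 lies alone at -42.2 on the second.

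More genes were higher than lower in 1% FBS. Of 14938 genes tested, 841 were higher and 471 lower in 1% FBS at an adjusted p below 0.01 (edgeR quasi-likelihood test with Benjamini-Hochberg adjustment), which is 5.63% and 3.15% of those tested and 8.78% together. A gene is said below to have risen, fallen or been called only if it passed this test, and every adjusted p below comes from it. The rises were larger than the falls: 440 called genes were higher by more than 1 on the log2 scale and 86 lower by as much, and the median log2 fold change was 1.04 among called rises and -0.64 among called falls, against 0.00 over all genes tested. The rises were also in rarer genes, with a median of 11.5 CPM in SPONT against 52.5 CPM for the falls. Of the rises, 151 were below 1 CPM in SPONT, and of the falls 28 were below 1 CPM in 1% FBS. The part of level in the difference of size was not tested. DESeq2 called 1387 higher and 1168 lower, and a fit of all 8 groups 1783 and 1534, so the excess of rises was smaller there (54.3% and 53.8% of calls against 64.1%). The 4 libraries of one group lay wholly on one side of the 4 of the other for 1302 of the 1312 called genes, and for 24.0% of all genes tested.

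The number of calls depended on single libraries. Without SPONT replicate 2 there were 1975 calls (13.0% of genes tested; 1089 higher, 886 lower), and 1280 of the 1312 were among them. Without SPONT replicate 3 there were 628, without SPONT replicate 4 there were 698, and without 1% FBS replicates 1, 2 and 3 there were 715, 730 and 793. No called gene changed direction when any 1 library was left out. The groups did not overlap for 1302 of the 1312, so a reversal was hardly possible for those. In bulk RNA, a change in the share of a cell type and a change in RNA per cell cannot be told apart, which holds for every gene below.

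**Figure D2:**
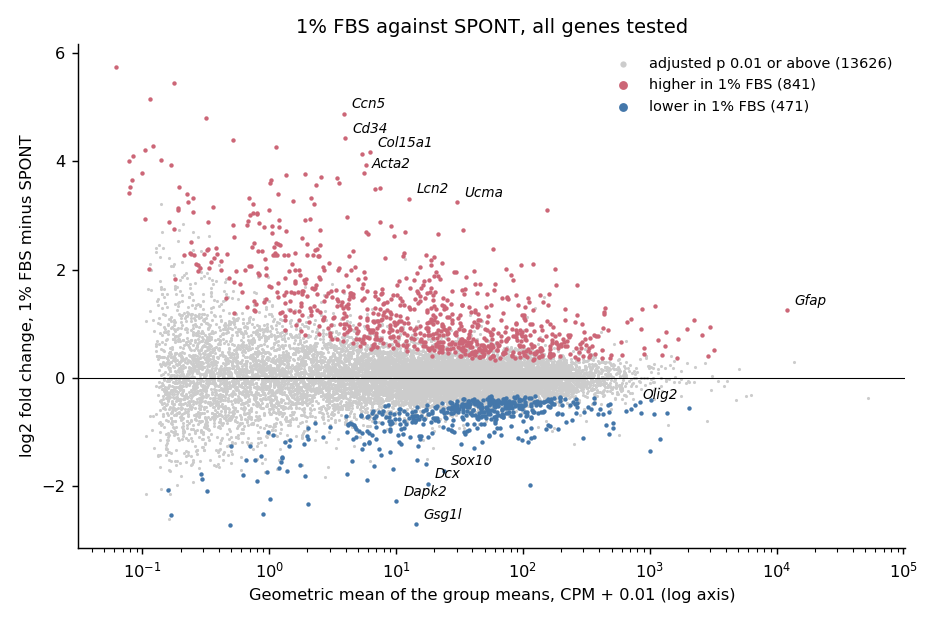
Each point is a gene tested; the horizontal axis is the geometric mean of the group means in CPM plus 0.01 (log axis) and the vertical axis the log2 fold change of 1% FBS minus SPONT. The 841 genes that rose extend further from 0 than the 471 that fell, and Gfap is among the most abundant of the genes that rose.

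The 12 largest rises among genes of at least 10 CPM included secreted matricellular proteins, contractile proteins and acute-phase proteins. Levels are in CPM, counts scaled to a common library total. Ccn5, a secreted matricellular protein, was at 0.664, 0.772, 0.855 and 0.567 CPM in SPONT replicates 1 to 4 and at 28, 29.3, 17 and 8.83 CPM in 1% FBS replicates 1 to 4. It was 29.5-fold higher (log2 fold change 4.88 ± 0.39 SE, n = 4 per group, adjusted p = 2.9e-05). Even the lowest 1% FBS library, replicate 4, lay far above every SPONT library. Cd34, a sialomucin of progenitor and endothelial cell surfaces, went from 1.86, 0.756, 0.427 and 0.373 CPM to 23.3, 22.8, 12.4 and 15.2 CPM (4.43 ± 0.46, adjusted p = 1.3e-04). Col15a1, a basement membrane collagen, was at 0.925, 1.01, 2.02 and 1.96 CPM in SPONT and at 58.5, 13.2, 17.4 and 16.8 CPM in 1% FBS (4.17 ± 0.52, adjusted p = 3.7e-04). Replicate 1 of 1% FBS was highest for Col15a1, and the rule that chose the 12 required groups that do not overlap.

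Ccn2, a matricellular protein and a standard target of YAP, was at 1, 0.885, 1.74 and 1.45 CPM in SPONT and at 34.4, 28.3, 12.2 and 14.2 CPM in 1% FBS (4.15 ± 0.37, adjusted p = 5.4e-05). Acta2, smooth muscle actin, was at 1.22, 2.17, 1.39 and 1.3 CPM in SPONT and at 39.2, 22.9, 11.2 and 9.69 CPM in 1% FBS (3.79 ± 0.45, adjusted p = 2.9e-04). In both, and in Tagln (3.61 ± 0.43, adjusted p = 2.8e-04) and Ogn (3.70 ± 0.47, adjusted p = 4.4e-04), 1% FBS replicates 1 and 2 lay above replicates 3 and 4. Tagln is an actin-binding protein of smooth muscle and Ogn a small leucine-rich proteoglycan of matrix. Syt12, a member of the synaptotagmin family, was more even, at 2.42, 2.07, 2.21 and 1.51 CPM in SPONT and 24.3, 18.4, 23.1 and 25.7 CPM in 1% FBS (3.49 ± 0.17, adjusted p = 4.3e-06). Ucma, a vitamin K-dependent matrix protein first known from cartilage, rose from 7.08–14.9 to 79.4–104 CPM (3.25 ± 0.22, adjusted p = 1.5e-05). Rassf4, a Ras-association domain protein, rose from 0.929–2.55 to 12.9–37.7 CPM (3.94 ± 0.40, adjusted p = 1.2e-04). The other 2, Ptx3 and Lcn2, are described with the reactive astrocyte genes.

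Among the 12 largest falls were transcription factors of the oligodendrocyte and neuronal lineages beside cell-surface and secreted proteins. Gsg1l, an auxiliary subunit of AMPA receptors, was at 26.8, 34.1, 41.2 and 45 CPM in SPONT and at 5.01, 5, 5.31 and 7.12 CPM in 1% FBS, 6.49-fold lower (log2 fold change -2.70 ± 0.18 SE, adjusted p = 1.4e-05). Dapk2, a calmodulin-dependent kinase, went from 15.1–29.5 to 3.49–7.17 CPM (-2.28 ± 0.27, adjusted p = 2.8e-04). For both, every SPONT library lay above every 1% FBS library, as the rule required. Of transcription factors of the GABAergic lineage, Gata3 (-1.89 ± 0.22, adjusted p = 2.7e-04) and Gsx1 (-1.37 ± 0.24, adjusted p = 0.0027) fell. The polysialic acid synthase St8sia2 went from 26.7–34.2 to 8.19–11.1 CPM (-1.59 ± 0.13, adjusted p = 3.8e-05), the teneurin Tenm2 from 11.2–12.9 to 2.83–4.37 CPM (-1.63 ± 0.15, adjusted p = 7.5e-05) and the Wnt modulator Dkk3 from 19.7–29.4 to 6.8–11.8 CPM (-1.52 ± 0.18, adjusted p = 2.7e-04). Myzap, a cell junction protein, fell by 1.67 on the log2 scale (SE 0.19, adjusted p = 2.1e-04). Gsx1 missed the threshold without SPONT replicates 3 or 4 or 1% FBS replicates 1 or 2 (adjusted p up to 0.012). Dcx, Sox10 and Dhrs3 are described with their groups.

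**Figure D3:**
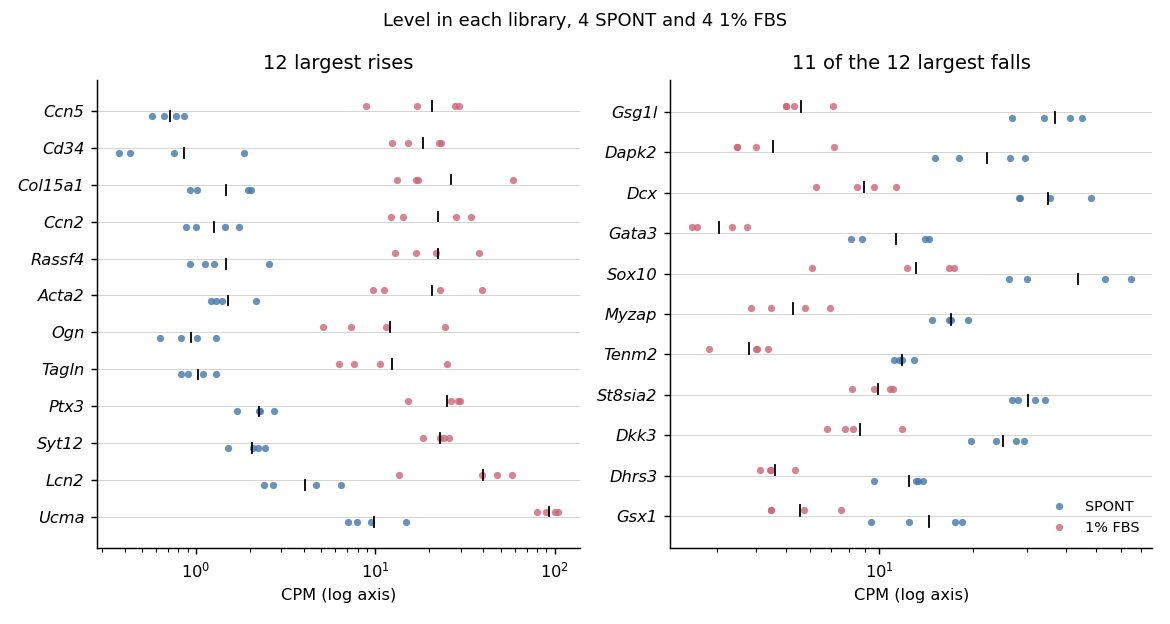
CPM in each library (log axis) of the 12 genes with the largest rise (left) and 11 of the 12 with the largest fall (right) in 1% FBS against SPONT; points are libraries and black ticks are group means of 4. The groups do not overlap for any of these genes, which the rule that chose them required, and Col15a1 has 1 high library at 58.5 CPM in 1% FBS.

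Genes were also described in lists by role. Over all genes tested 8.78% were called, and the shares in the lists ran from 0% of sterol efflux, microglial and pluripotency genes to 59% of reactive astrocyte genes. Counts of called members are given with those obtained without SPONT replicate 2, and, for many lists, without other libraries. The lists are short and overlap, and no list was tested against another.

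**Figure D4:**
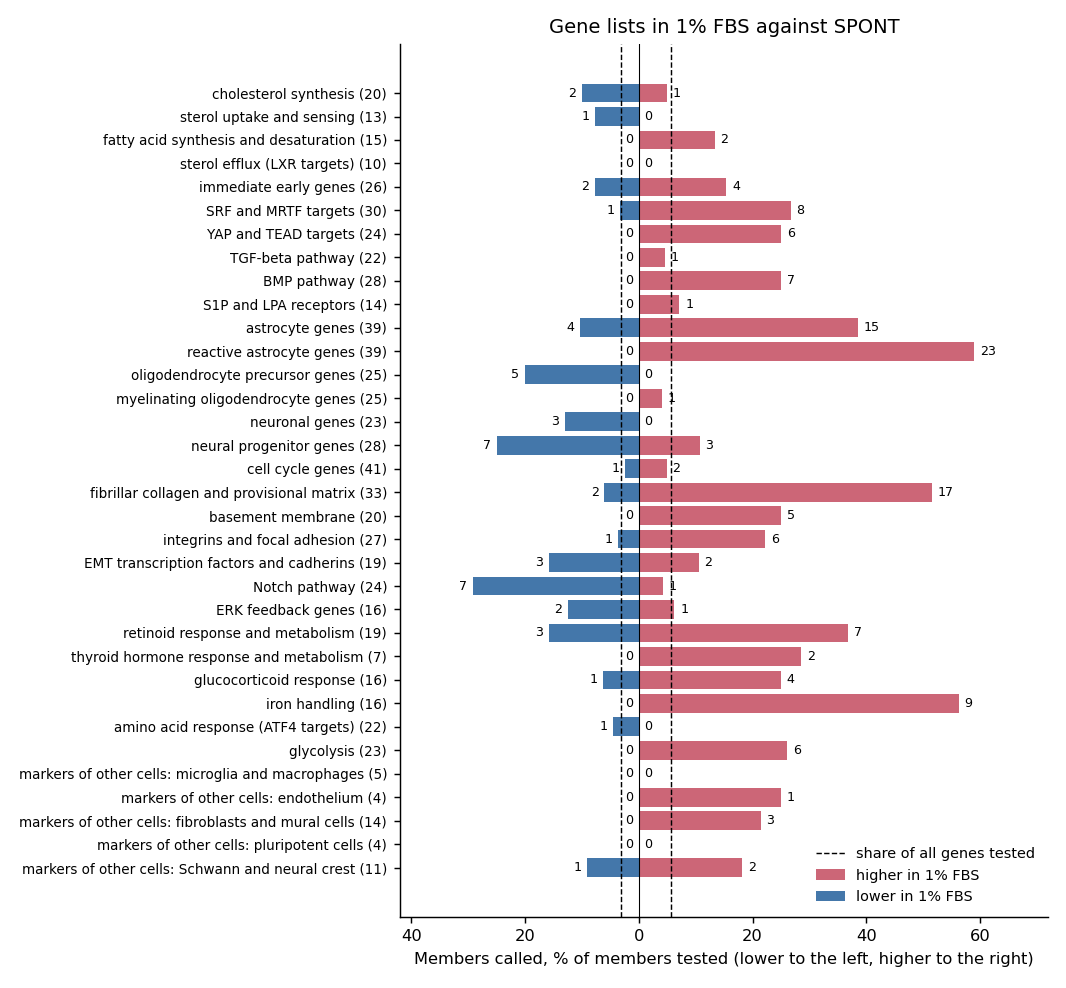
Percent of the tested members of each gene list that were higher (right, red) or lower (left, blue) in 1% FBS at an adjusted p below 0.01; numbers beside bars are counts of members, the number tested is in brackets, and dashed lines mark the shares over all genes tested (5.63% higher, 3.15% lower). Reactive astrocyte genes, matrix genes and iron handling genes lie furthest to the right, and Notch pathway, neural progenitor and oligodendrocyte precursor genes furthest to the left.

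Astrocyte genes were the first purpose of adding serum, and of 39 tested (of 40 listed) 15 rose, 4 fell and 20 did not pass the test, with a median log2 fold change of 0.36 against 0.00 over all genes. Gfap, the astrocyte intermediate filament, was at 9858, 8983, 6401 and 6279 CPM in SPONT and at 17348, 21399, 19987 and 15617 CPM in 1% FBS. It rose 2.39-fold (1.26 ± 0.17, adjusted p = 5.8e-04) with no overlap, and it was the most abundant of all genes that rose. The largest rises of the list were in enzymes. Acsbg1, a long-chain acyl-CoA synthetase, was at 89.9, 75.8, 96.7 and 93.9 CPM in SPONT and 349, 318, 283 and 481 CPM in 1% FBS (2.02 ± 0.14, adjusted p = 1.5e-05). Aldh1a1, a retinaldehyde dehydrogenase, was at 46.6, 37.9, 30.3 and 31.2 CPM in SPONT and 129, 161, 116 and 177 CPM in 1% FBS (2.01 ± 0.16, adjusted p = 3.0e-05). The groups did not overlap for either gene.

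Aqp4, the water channel of astrocyte endfeet, was at 99.3, 54, 54.7 and 55.3 CPM in SPONT and at 159.9, 185, 149.7 and 86 CPM in 1% FBS (1.17 ± 0.25, adjusted p = 0.0092). SPONT replicate 1 lay above 1% FBS replicate 4, so the groups overlapped, and the call was lost without SPONT replicates 2, 3 or 4 or 1% FBS replicates 1, 2 or 3 (adjusted p up to 0.037). Fam107a, an actin-bundling protein of astrocytes and radial glia, rose to only 1.28–2.88 CPM from 0.563–1.3 CPM (1.59 ± 0.33, adjusted p = 0.0071) and also overlapped. Its call was lost without SPONT replicates 2, 3 or 4 or 1% FBS replicates 1, 2 or 4 (adjusted p up to 0.029). Other members that rose included Slc1a2, Gjb6, Atp1b2, Sparcl1, Aldh1l1, Clu, Kcnj10, Slc38a3 and Cst3, by 0.40 to 1.17 on the log2 scale. They include the glutamate transporter Slc1a2, from 148–223 to 321–482 CPM, and Atp1b2, a subunit of the glial sodium pump.

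The 4 astrocyte-listed genes that fell included the transcription factor Nfib, the GABA transporter Slc6a11 and the enzyme Cbs, which makes cystathionine. Nfib was at 407, 398, 463 and 504 CPM in SPONT and at 200.2, 202, 210.3 and 197 CPM in 1% FBS (-1.11 ± 0.09, adjusted p = 3.0e-05), with no overlap. Slc6a11 was at 718, 417, 827 and 807 CPM in SPONT, where replicate 2 was low, and at 339, 295, 283 and 421 CPM in 1% FBS (-1.03 ± 0.19, adjusted p = 0.004, and 5.7e-05 without SPONT replicate 2). Its groups overlapped through SPONT replicate 2, and it missed the threshold without SPONT replicates 3 or 4 or 1% FBS replicates 1, 2 or 3 (up to 0.018). These genes lie outside the naming rule and were chosen after their values were seen. Sox9, a transcription factor that specifies astrocytes, was at 398–453 CPM in SPONT and 344–461 CPM in 1% FBS and did not pass the test (adjusted p = 0.93). Without SPONT replicate 2 the list had 18 calls, 14 higher, and it had 9 to 18 when any 1 library was left out (11 and 10 without SPONT replicates 3 and 4, and 9, 9 and 10 without 1% FBS replicates 1, 2 and 3).

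Reactive astrocyte genes, which injury and cytokines induce, had the largest share of calls of any list described: 23 of 39 tested rose, none fell and 16 did not pass, with a median log2 fold change of 1.51. Without SPONT replicate 2 there were 26, all higher, and 18 to 26 when any 1 library was left out. Ptx3, a soluble pattern recognition protein, was at 2.27, 2.72, 2.26 and 1.7 CPM in SPONT and 29.1, 29.8, 26.6 and 15.3 CPM in 1% FBS (3.51 ± 0.24, adjusted p = 1.5e-05). Lcn2, a siderophore-binding acute-phase protein, was at 4.65, 6.47, 2.68 and 2.39 CPM in SPONT and 47.8, 58.2, 39.2 and 13.6 CPM in 1% FBS (3.31 ± 0.45, adjusted p = 6.9e-04). Replicate 4 of 1% FBS was the lowest of its group for both, but still above every SPONT library, as the rule of the 12 largest rises required.

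Tgm1, a transglutaminase, had the largest fold change of the list at a low level, 0.059–0.434 CPM in SPONT and 2.49–5.78 CPM in 1% FBS (4.27 ± 0.48, adjusted p = 2.0e-04). Anxa1, a phospholipid-binding protein, was at 0.0442–0.209 CPM in SPONT, near the limit of counting, and at 0.42–1.68 CPM in 1% FBS (adjusted p = 0.0047, and up to 0.019 without SPONT replicates 3 or 4 or 1% FBS replicates 1 or 2). Among the others, chosen after their values were seen, complement C3 was the most changed of the abundant members. It was at 59.1, 89.2, 34.7 and 31.7 CPM in SPONT and at 516, 569, 466 and 266 CPM in 1% FBS (3.10 ± 0.36, adjusted p = 2.5e-04). Serpina3n, a secreted protease inhibitor, rose from 66.7–132 to 219–431 CPM (1.72 ± 0.26, adjusted p = 0.0014). Socs3, the feedback inhibitor of STAT3 signalling, rose from 5.84–6.75 to 18.2–26.2 CPM (1.84 ± 0.15, adjusted p = 2.9e-05). In C3 and Serpina3n the SPONT replicates 1 and 2 lay above replicates 3 and 4. Vim, the intermediate filament that reactive astrocytes share with progenitors, was at 1656–1895 CPM in SPONT and 1918–2286 CPM in 1% FBS and did not pass the test (0.28 ± 0.09, adjusted p = 0.048), although its groups did not overlap.

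Called oligodendrocyte precursor genes were all lower. Of 25 tested none rose, 5 fell and 20 did not pass, with a median log2 fold change of -0.24. Olig2, the transcription factor that specifies the lineage, was at 799, 858, 1018 and 967 CPM in SPONT and at 691, 582, 646 and 638 CPM in 1% FBS (-0.50 ± 0.10, adjusted p = 0.0052). Its neighbour and relative Olig1 went from 2073–2796 to 1530.3–1897 CPM (-0.56 ± 0.11, adjusted p = 0.0048), and Nkx2-2, a homeobox factor of the same lineage, from 66.4–85.5 to 41.7–57.4 CPM (-0.62 ± 0.12, adjusted p = 0.006). Sox10, a transcription factor needed for myelin genes, was at 64.6, 53.5, 30 and 26.3 CPM in SPONT and 17.4, 12.3, 16.8 and 6.06 CPM in 1% FBS (-1.71 ± 0.36, adjusted p = 0.0081). SPONT replicates 1 and 2 were the high libraries for Sox10. Pdgfra, the receptor that defines precursors, was at 150.3, 115, 197 and 202 CPM in SPONT and at 136, 127, 119 and 133 CPM in 1% FBS (-0.35 ± 0.15, adjusted p = 0.14, and 0.0054 without SPONT replicate 2).

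These calls were close to the threshold. Sox10 was called only without SPONT replicate 4 (adjusted p 0.0075 to 0.03 over the 8 fits), Olig2 missed the threshold without SPONT replicates 3 or 4 or any 1% FBS replicate (up to 0.022), Olig1 without SPONT replicates 3 or 4 or 1% FBS replicates 1, 2 or 3 (up to 0.021) and Nkx2-2 without SPONT replicates 1 or 3 or 1% FBS replicates 2, 3 or 4 (up to 0.023). The list had 9 calls, all lower, without SPONT replicate 2. It had 3, 0 and 2 without SPONT replicates 1, 3 and 4 and 1, 0, 0 and 1 without 1% FBS replicates 1 to 4.

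Myelin genes differed more within SPONT than between the groups. Mbp, myelin basic protein, was at 749, 567, 116 and 114 CPM in SPONT and at 200.1, 156, 238 and 60 CPM in 1% FBS (-1.22 ± 0.61, adjusted p = 0.19). The 25 myelinating oligodendrocyte genes summed to 5212 and 4727 CPM in SPONT replicates 1 and 2, to 2718 and 2658 CPM in replicates 3 and 4, and to 2704–3586 CPM in 1% FBS. SPONT replicates 1 and 2 thus held more myelin RNA than the other 6 libraries, and the part this plays in the results was not tested. Trf, transferrin, which oligodendrocytes and choroid plexus make, was the 1 member that rose, from 14.1–18.4 to 31.7–49.7 CPM (1.30 ± 0.15, adjusted p = 2.5e-04). None fell, 24 did not pass, and without SPONT replicate 2 there were 2 calls, both higher. The share of myelin genes called was 4%, against 8.78% over all genes tested.

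Neuronal genes were mostly at low levels in both groups, and 11 of 34 were not tested. Of the 23 tested none rose, 3 fell and 20 did not pass, with a median of -0.43. Dcx, the microtubule protein of migrating neuroblasts, was at 48.2, 35.4, 28.3 and 28.4 CPM in SPONT and 11.3, 8.51, 9.59 and 6.26 CPM in 1% FBS, 3.88-fold lower (-1.96 ± 0.22, adjusted p = 1.8e-04). Rbfox3, the neuronal splicing factor NeuN, was at 21.1, 22.8, 24.6 and 24.9 CPM in SPONT and 9.67, 10.7, 8.91 and 9.32 CPM in 1% FBS (-1.26 ± 0.10, adjusted p = 3.3e-05). Every SPONT library lay above every 1% FBS library for both, which for Dcx the rule of the 12 largest falls required. The neurofilament relative Ina was at 7.06–8.97 CPM in SPONT and 4.4–5.94 CPM in 1% FBS (-0.65 ± 0.14, adjusted p = 0.0091). It missed the threshold in every fit that left out 1 library except the one without SPONT replicate 2 (up to 0.038). Tubb3, neuronal tubulin, was by contrast at 71.8–88.2 CPM in SPONT and 93.7–115 CPM in 1% FBS and did not pass (0.37 ± 0.10, adjusted p = 0.025, and 0.0058 without SPONT replicate 2). Without SPONT replicate 2 the list had 8 calls, 7 of them lower, and it had 2 to 8 when any 1 library was left out.

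Neural progenitor genes split. Of 28 tested 3 rose, 7 fell and 18 did not pass (median -0.31). Those that rose were Hopx, a homeodomain-only protein of radial glia and astrocytes, at 47.5, 39.7, 39.8 and 41.6 CPM in SPONT and 189, 146, 156 and 128 CPM in 1% FBS (1.89 ± 0.12, adjusted p = 1.4e-05), the cyclin Ccnd2 (15.2–26.4 to 44.3–58.1 CPM, 1.34 ± 0.15, adjusted p = 2.5e-04) and the IGF-binding protein Igfbp2 (57.9–101 to 107–237 CPM, 1.25 ± 0.24, adjusted p = 0.0052). Igfbp2 lost its call without SPONT replicates 1 or 3 or 1% FBS replicates 1, 2 or 4 (up to 0.019). Those that fell were Dll1, Hes5, Egfr, Sox4, Sox11, Dll3 and Pax6, which include the neurogenic factors Sox4 (563–793 to 335–394 CPM) and Sox11 (54.5–69.2 to 35.2–37.6 CPM). Nes, the progenitor filament nestin, was at 202, 206, 298 and 314 CPM in SPONT and averaged 231 ± 40 CPM (SD, n = 4) in 1% FBS, overlapping, and did not pass (-0.13 ± 0.16, adjusted p = 0.63). The list had 13 calls, 10 of them lower, without SPONT replicate 2, and 5, 6, 6 and 5 without SPONT replicates 3 and 4 and 1% FBS replicates 1 and 2.

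Dll1, Hes5 and Dll3 belong to the Notch pathway, through which neighbouring cells signal to each other by membrane-bound ligands. Of its 24 genes, all tested, 1 rose, 7 fell and 16 did not pass (median -0.18). The ligand Dll1 was at 125, 94.9, 185 and 184 CPM in SPONT and 62.7, 62.5, 51.5 and 86.5 CPM in 1% FBS (-1.15 ± 0.21, adjusted p = 0.0037). SPONT replicate 2 was its low library, and the call was lost without SPONT replicates 3 or 4 or 1% FBS replicates 1, 2 or 3 (up to 0.016). The ligands Jag1 and Dll4 also fell, Jag1 from 10.8–21.1 to 6.63–8.4 CPM (-1.22 ± 0.18, adjusted p = 9.8e-04) and Dll4 from 1.87–3.11 to 0.466–0.884 CPM (-1.73 ± 0.26, adjusted p = 0.0012). The target Hes5 went from 132–183 to 67–103 CPM (-0.93 ± 0.15, adjusted p = 0.0018), and the ligand Dll3, the glycosyltransferase Mfng and the coactivator Maml2 fell too. Hes1, the other main target, was at 21.1–33.6 CPM in SPONT and 28–34.7 CPM in 1% FBS (adjusted p = 0.51). Dlk1, an atypical member without the canonical receptor-activating domain, rose from 1.38, 1.69, 1.4 and 1.41 CPM to 16, 10.4, 10.1 and 9.15 CPM (2.97 ± 0.20, adjusted p = 1.5e-05). Without SPONT replicate 2 the list had 11 calls, 10 lower, and it had 5 without each of SPONT replicates 3 and 4 and 1% FBS replicates 2 and 3.

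Few cell cycle genes were called, but most had a value above 0. Of 41 tested 2 rose, 1 fell and 38 did not pass, a share of calls of 7.32% against 8.78% over all genes tested. The median log2 fold change was 0.41, and 38 of the 41 were above 0 whether or not called. Summed over the list, levels were 1463–1624 CPM in SPONT and 1740–2026 CPM in 1% FBS. Mki67, a marker of cycling cells, was at 36, 49.2, 33.5 and 30.5 CPM in SPONT and 34.5, 62.9, 46.4 and 40.5 CPM in 1% FBS (0.32 ± 0.20, adjusted p = 0.3). The mitotic checkpoint kinase Bub1b rose from 12.2–16 to 19.9–29 CPM (0.79 ± 0.14, adjusted p = 0.0031), as did the cyclin-dependent kinase inhibitor Cdkn1a (p21), from 153–179.9 to 218–320.0 CPM (0.67 ± 0.12, adjusted p = 0.0038). Bub1b missed the threshold without SPONT replicates 3 or 4 or 1% FBS replicate 1 (up to 0.014) and Cdkn1a without SPONT replicates 3 or 4 or 1% FBS replicates 3 or 4 (up to 0.016). Another inhibitor of the same kinases, Cdkn1c (p57), was at 74.1, 69.7, 58 and 56.6 CPM in SPONT and 26.5, 28.1, 23.8 and 25.4 CPM in 1% FBS (-1.30 ± 0.11, adjusted p = 3.5e-05). The list had 10 calls, 9 of them higher, without SPONT replicate 2, 8 without SPONT replicate 1, and 1 without either SPONT replicate 3 or 4.

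Contractile and serum-response genes held some of the largest changes. Of 30 SRF and MRTF targets tested 8 rose, 1 fell and 21 did not pass (median 0.06). Summed over the list, levels were lower in 1% FBS, at 9135–9655 CPM against 10247–11088 CPM in SPONT. The members with the largest changes were those of smooth muscle: beside Acta2 and Tagln, Lmod1, an actin nucleator of smooth muscle, rose from 2.48–3.46 to 8.39–13.1 CPM (1.96 ± 0.18, adjusted p = 6.0e-05), and calponin Cnn1 from 0.193–0.442 to 0.962–1.61 CPM (2.00 ± 0.29, adjusted p = 0.001). The rest of the called rises were Ldb3, Myl9, Cnn3 and Tagln2, by 0.37 to 1.40, and Tgfb1i1 fell. Srf itself, the transcription factor, was at 49–58.2 CPM in SPONT and 41.9–47 CPM in 1% FBS (-0.21 ± 0.09, adjusted p = 0.12), and the cytoplasmic actin Actb at 6087–7192 and 4978–5292 CPM (-0.33 ± 0.08, adjusted p = 0.02). Without SPONT replicate 2 the list had 10 calls, 8 of them higher. It had 4 and 5 without SPONT replicates 3 and 4 and 5, 4 and 5 without 1% FBS replicates 1, 2 and 3.

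Of 24 YAP and TEAD targets tested 6 rose, none fell and 18 did not pass (median 0.45). There were 7 calls, all higher, without SPONT replicate 2, and 5 to 9 when any 1 library was left out. Beside Ccn5 and Ccn2, the matricellular protein Ccn1 was at 15.7, 18.9, 22.2 and 22.2 CPM in SPONT and 59.9, 63.7, 61 and 59.3 CPM in 1% FBS, 3.12-fold higher (1.64 ± 0.12, adjusted p = 1.5e-05), with little spread in either group. The ectonucleotidase Nt5e rose from 0.531–0.65 to 1.51–2.13 CPM (1.67 ± 0.22, adjusted p = 4.9e-04). Tissue factor F3 and the LIM protein Ajuba were the other 2. Immediate early genes, which growth factors switch on within minutes, gave 4 rises, 2 falls and 20 not passed among 26 tested (median 0.24). Junb, an AP-1 subunit, was at 23.9, 23.6, 16.6 and 19.8 CPM in SPONT and 65.5, 78.4, 96.3 and 84.5 CPM in 1% FBS (1.97 ± 0.15, adjusted p = 2.4e-05). Ier3 (1.53 ± 0.25, adjusted p = 0.0019) and Egr2 (1.11 ± 0.19, adjusted p = 0.0027) rose at lower levels, whereas the antiproliferative Btg2 went from 178–268 to 96.8–156 CPM (-0.89 ± 0.16, adjusted p = 0.0038). Egr2 lost its call without SPONT replicate 3 or 1% FBS replicate 3 (up to 0.013) and Btg2 without SPONT replicates 3 or 4 or 1% FBS replicates 1, 2 or 3 (up to 0.017). The list had 7 calls, 5 of them higher, without SPONT replicate 2, and 3 without SPONT replicate 3.

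The promoters of 4 genes are shown as examples of windows that hold a searched motif, in Acta2, Ccn1 and Cp, which rose, and in Srf, which did not pass the test. They are RefSeq sequences of build GRCm38.p6, 250 bases before to 50 bases after the annotated start, on the strand of the gene. Capitals mark GGAATG, the core of TEAD sites, or its reverse complement in Acta2 (chr19:34255324-34255623, minus strand) and Ccn1 (chr3:145649936-145650235, minus strand), the CArG box bound by SRF in Srf (chr17:46556113-46556412, minus strand), and the AP-1 site TGANTCA in Cp (chr3:19956804-19957103, plus strand), ceruloplasmin, whose values are given with the iron genes.
Acta2: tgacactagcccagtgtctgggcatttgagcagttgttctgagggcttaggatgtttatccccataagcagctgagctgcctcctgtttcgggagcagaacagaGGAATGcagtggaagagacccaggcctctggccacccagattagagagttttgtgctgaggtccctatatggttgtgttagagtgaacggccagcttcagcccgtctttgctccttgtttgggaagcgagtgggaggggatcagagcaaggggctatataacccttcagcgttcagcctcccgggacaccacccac
Ccn1: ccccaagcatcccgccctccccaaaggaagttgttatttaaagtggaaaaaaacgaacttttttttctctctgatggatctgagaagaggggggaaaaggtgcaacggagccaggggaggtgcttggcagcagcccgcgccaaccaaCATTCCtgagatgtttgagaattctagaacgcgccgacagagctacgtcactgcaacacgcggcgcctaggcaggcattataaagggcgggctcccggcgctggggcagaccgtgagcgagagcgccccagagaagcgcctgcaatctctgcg
Srf: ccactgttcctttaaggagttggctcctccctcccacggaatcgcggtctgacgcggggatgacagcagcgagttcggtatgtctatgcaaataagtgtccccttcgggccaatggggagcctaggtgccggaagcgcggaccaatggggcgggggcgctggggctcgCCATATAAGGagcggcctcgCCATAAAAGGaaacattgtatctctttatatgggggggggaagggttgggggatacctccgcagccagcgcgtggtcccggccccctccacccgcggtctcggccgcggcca
Cp: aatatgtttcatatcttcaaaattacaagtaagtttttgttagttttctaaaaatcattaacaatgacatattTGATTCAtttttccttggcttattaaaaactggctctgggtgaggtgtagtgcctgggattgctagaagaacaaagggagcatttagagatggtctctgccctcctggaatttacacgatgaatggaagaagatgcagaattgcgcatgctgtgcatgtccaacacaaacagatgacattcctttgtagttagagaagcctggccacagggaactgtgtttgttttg

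Each motif was searched on both strands in the first listed promoter of each gene, and a promoter was found for 11374 of the genes tested, 650 of those that rose and 372 of those that fell. GGAATG was present in 14.3% of the promoters of genes that rose, 8.87% of those that fell, 12.1% of genes tested and 14.6% of all 27025 promoters. TGANTCA was present in 8.15%, 4.57%, 4.64% and 7.93%, and the CArG box in 2%, 1.61%, 1.29% and 1.57%. The E-box CACGTG was present in 8.92%, 8.87%, 9.99% and 7.24%, and the sterol element TCACNCCAC in 1.38%, 1.08%, 1.08% and 1.22%. The CArG box was found in 9 of 26 promoters of SRF and MRTF targets and GGAATG in 8 of 18 of YAP and TEAD targets. Among members that rose, those were 2 of 7 and 2 of 4. The CArG box was searched as CC, then only A or T, then GG, so forms with another base inside were not counted, in Acta2 or elsewhere. These are matches of letters in short windows, given as a description, and no match says only that the letters are not in that window.

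Among matrix genes, called rises outnumbered called falls. Of 33 fibrillar collagen and provisional matrix genes tested 17 rose, 2 fell and 14 did not pass (median 0.83). Col1a1, a chain of type I collagen, was at 4, 5.28, 4.97 and 4.34 CPM in SPONT and 52.1, 42.9, 13.9 and 10 CPM in 1% FBS (2.69 ± 0.47, adjusted p = 0.003). Replicates 1 and 2 of 1% FBS were the high libraries, and the call was lost without SPONT replicates 3 or 4 or 1% FBS replicate 2 (up to 0.013). The partner chain Col1a2 was at 0.387–0.964 CPM in SPONT and 0.199–0.406 CPM in 1% FBS (-0.77 log2 fold change, adjusted p = 0.18), so the RNAs of the 2 chains were at unequal levels in these libraries. Col8a1, a short-chain collagen, was even within groups, at 0.322–0.387 CPM in SPONT and 2.9–4.19 CPM in 1% FBS (3.40 ± 0.19, adjusted p = 8.6e-06).

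The collagen cross-linking enzymes Lox, from 0.195–0.47 to 0.949–8.47 CPM (3.59 ± 0.68, adjusted p = 0.0046), and Loxl2, from 0.737–1.26 to 4.22–8.04 CPM (2.73 ± 0.24, adjusted p = 4.2e-05), rose with the matricellular protein Postn, from 0.391–0.545 to 1.76–9.9 CPM (3.27 ± 0.53, adjusted p = 0.0018). Lox missed the threshold without SPONT replicates 1, 3 or 4 or 1% FBS replicate 2 (up to 0.02). Eln, elastin, chosen after its values were seen, was the abundant member with the largest rise, from 49.5–71.1 to 148–358 CPM (2.11 ± 0.23, adjusted p = 1.7e-04). Fn1, fibronectin, was at 84.8, 107, 106 and 96 CPM in SPONT and 117, 154, 181 and 140.1 CPM in 1% FBS (0.60 ± 0.14), with no overlap but an adjusted p of 0.013. The 2 that fell were the glycoproteins Fbln1 and Emilin1. The list had 20 calls, 18 higher, without SPONT replicate 2, and 12, 10 and 11 without SPONT replicates 3 and 4 and 1% FBS replicate 2.

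Basement membrane genes gave 5 rises, no falls and 15 not passed among 20 tested (median 0.39). Beside Col15a1, the linker Nid2 rose from 29.5, 21.4, 28.4 and 29.1 CPM to 77, 63, 62.6 and 53.4 CPM (1.26 ± 0.13, adjusted p = 1.4e-04), and the laminin chain Lama4 rose at a low level (0.265–0.611 to 1.14–2.63 CPM, 1.91 ± 0.35, adjusted p = 0.0041). Lama4 lost its call without SPONT replicates 3 or 4 or 1% FBS replicate 1 (up to 0.017). There were 9 calls, 7 higher, without SPONT replicate 2, and 3 without each of SPONT replicates 3 and 4 and 1% FBS replicate 1. Of 27 integrin and focal adhesion genes tested 6 rose, 1 fell and 20 did not pass (median 0.18; 9 calls, 8 higher, without SPONT replicate 2). There were 5 to 9 calls when any 1 library was left out. The collagen receptor chain Itga1 rose from 1.7–2.49 to 5.51–10.2 CPM (2.00 ± 0.21, adjusted p = 1.4e-04), the laminin receptor chain Itga3 from 5.2–7.55 to 11.6–15.9 CPM (1.10 ± 0.16, adjusted p = 9.3e-04) and the caveolar coat protein Cavin1 from 67.3–82.8 to 124–167 CPM (1.08 ± 0.11, adjusted p = 1.5e-04). Itgb4, the laminin receptor chain of hemidesmosomes, fell from 1.5–2.51 to 0.542–0.817 CPM (-1.56 ± 0.25, adjusted p = 0.0017).

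Transcription factors and cadherins of epithelial to mesenchymal transition had calls in both directions. Of 19 tested 2 rose, 3 fell and 14 did not pass (median 0.05). Snai1, a zinc finger repressor of E-cadherin, was at 0.873, 0.74, 1.31 and 0.705 CPM in SPONT and 5.35, 2.89, 2.4 and 2.77 CPM in 1% FBS (1.90 ± 0.30, adjusted p = 0.0017), and the forkhead factor Foxc1 rose from 3.49–5.42 to 8.12–12.3 CPM (1.19 ± 0.18, adjusted p = 0.0012). Snai2, a relative of Snai1, was at 0.118–0.495 CPM in SPONT and 0.237–0.595 CPM in 1% FBS (0.70 ± 0.45, adjusted p = 0.31). Those that fell were E-cadherin Cdh1, from 1.21–1.91 to 0.162–0.575 CPM (-1.91 ± 0.35, adjusted p = 0.004), R-cadherin Cdh4 (-0.73 ± 0.15, adjusted p = 0.0066) and Tcf4. Cdh4 was at 96.6, 58.8, 102 and 102 CPM in SPONT, where replicate 2 stood apart, and 48.7–56.9 CPM in 1% FBS. Its call was kept without SPONT replicate 2 (1.3e-05) and lost without each of the other libraries in turn (up to 0.027). Cdh1 lost its call without SPONT replicates 3 or 4 or 1% FBS replicate 1 (up to 0.016). The list had 8 calls, 6 lower, without SPONT replicate 2 and 3 without each of SPONT replicates 3 and 4 and 1% FBS replicate 1.

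Among the signalling families that serum could engage, the TGF-beta pathway had 1 called gene of 22 tested (4.55%, against 8.78% over all genes tested, median 0.14). This was Ltbp2, a latent TGF-beta binding protein of microfibrils, from 0.0965–0.383 to 1.43–2.56 CPM (2.90 ± 0.41, adjusted p = 8.9e-04). The feedback gene Smad7 did not pass (adjusted p = 0.78), and without SPONT replicate 2 there were 2 calls, 1 higher. The BMP pathway had 7 rises, no falls and 21 not passed of 28 (median 0.22; 8 calls, all higher, without SPONT replicate 2). It had 5 to 8 calls when any 1 library was left out. Id3, an inhibitor of basic helix-loop-helix factors and a direct BMP target, was at 154, 134, 104 and 108 CPM in SPONT and 227, 226, 250.2 and 246 CPM in 1% FBS (0.94 ± 0.12, adjusted p = 5.1e-04). Id1, its relative, overlapped between the groups, at 176, 165, 106 and 108 CPM in SPONT and 171, 190.4, 191 and 181 CPM in 1% FBS (0.42 ± 0.16, adjusted p = 0.1). For both genes SPONT replicates 1 and 2 were above replicates 3 and 4.

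The feedback inhibitor Smad6 rose from 1.16–3.55 to 6.56–8.6 CPM (1.69 ± 0.32, adjusted p = 0.0046), and the ligands Bmp2, from 2.82–3.25 to 5.47–6.25 CPM (0.96 ± 0.13, adjusted p = 5.9e-04), and Bmp6, from 0.692–1.03 to 1.92–3.51 CPM (1.57 ± 0.25, adjusted p = 0.0017), rose at low levels. Smad6 lost its call without SPONT replicate 3 or any 1% FBS replicate (up to 0.017). Of 14 S1P and LPA receptor genes tested 1 rose, S1pr3, a receptor of sphingosine-1-phosphate, at 68.4, 58.5, 42.3 and 39 CPM in SPONT and 149 ± 46 CPM (SD, n = 4) in 1% FBS, where every library lay above every SPONT library (1.54 ± 0.25, adjusted p = 0.002). It missed the threshold without SPONT replicate 3, which left the list with no call, and was called without SPONT replicate 2. None fell and 13 did not pass (median 0.06), a share of calls of 7.14% against 8.78% over all genes tested. Of 16 ERK feedback genes tested 1 rose, 2 fell and 13 did not pass (median -0.07). The phosphatase Dusp5 rose from 3.81–5.34 to 6.39–9.93 CPM (0.88 ± 0.17, adjusted p = 0.0052), while the ETS factor Etv4 went from 6.88–11.1 to 2.93–4.66 CPM (-1.21 ± 0.20, adjusted p = 0.002) and the FGF receptor antagonist Il17rd from 23.3–44.1 to 17–21.2 CPM (-0.95 ± 0.17, adjusted p = 0.0037). Dusp5 missed the threshold without SPONT replicates 3 or 4 or 1% FBS replicates 1, 2 or 3 (up to 0.021), and Il17rd without SPONT replicates 3 or 4 or any 1% FBS replicate (up to 0.016). The ERK list had 6 calls, 5 lower, without SPONT replicate 2, and 1 without each of SPONT replicates 3 and 4 and 1% FBS replicates 1 and 3.

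Shares of lipid genes called were 15% in cholesterol synthesis and 13.3% in fatty acid synthesis, against 8.78% over all genes tested. They were 7.69% in sterol uptake and sensing and 0% in sterol efflux. Of 20 cholesterol synthesis enzymes, all tested, 1 rose, 2 fell and 17 did not pass; the median was -0.26 and 15 of the 20 had a value below 0. The farnesyl diphosphate synthase Fdps was at 132, 167, 131 and 131 CPM in SPONT and 102, 98.4, 93.7 and 92.7 CPM in 1% FBS (-0.52 ± 0.10, adjusted p = 0.0052), and the acetyl-CoA acetyltransferase Acat2 went from 48–59.3 to 34.5–39.7 CPM (-0.47 ± 0.09, adjusted p = 0.0057). Hmgcs1, which makes HMG-CoA, was at 805, 542, 708 and 771 CPM in SPONT and 584, 635, 487 and 549 CPM in 1% FBS (-0.31 ± 0.12, adjusted p = 0.099, and 0.0063 without SPONT replicate 2). The groups overlapped for Hmgcs1 through SPONT replicate 2 alone. Hsd17b7, an enzyme of the same pathway that also reduces estrone, rose from 26.8, 12, 17.6 and 18.1 CPM to 42.8, 50.3, 35.5 and 38.1 CPM (1.18 ± 0.20, adjusted p = 0.0026).

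Insig1, which holds the sterol sensor in the endoplasmic reticulum, fell from 93.9–131 to 71.6–92.8 CPM (-0.51 ± 0.11, adjusted p = 0.0092) and was the 1 call among 13 sterol uptake and sensing genes tested (median -0.04). Fdps and Acat2 lost their calls without SPONT replicates 3 or 4 or any 1% FBS replicate (up to 0.018 and 0.021), Hsd17b7 without SPONT replicates 3 or 4 or 1% FBS replicates 1 or 2 (up to 0.013), and Insig1 without any library but SPONT replicate 2 (up to 0.036). Cholesterol synthesis had 5 calls, 4 lower, without SPONT replicate 2, none without SPONT replicates 3 or 4 or 1% FBS replicates 1 or 2, and 1 without 1% FBS replicates 3 or 4, and sterol uptake and sensing had 2, both lower, without SPONT replicate 2 and none without any other 1 library. In fatty acid synthesis 2 of 15 rose and none fell (median -0.04; 3 calls, 2 higher, without SPONT replicate 2): the glycerol-3-phosphate acyltransferase Gpam, at 138, 45.8, 97.3 and 94.9 CPM in SPONT and 272, 319, 237 and 261 CPM in 1% FBS (1.55 ± 0.25, adjusted p = 0.0019), and the malic enzyme Me1 (0.45 ± 0.08, adjusted p = 0.0022), the latter not without SPONT replicates 3 or 4 or 1% FBS replicates 1 or 2 (up to 0.012). None of 10 sterol efflux genes passed in edgeR (median 0.06; 1 at an unadjusted p below 0.05) or in DESeq2, and 1 did, upward, without SPONT replicate 2. It was Apoe, apolipoprotein E, at 11346, 16179, 11249.8 and 11014 CPM in SPONT and 14699, 13778, 14742 and 17668 CPM in 1% FBS (adjusted p = 0.16, and 0.0029 without SPONT replicate 2).

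Genes of retinoid handling moved in both directions. Of 19 tested (of 24) 7 rose, 3 fell and 9 did not pass (median 0.76). Beside Aldh1a1, the retinoic acid hydroxylase Cyp26b1 rose from 0.249–0.782 to 2.29–2.87 CPM (2.47 ± 0.30, adjusted p = 3.2e-04). The retinaldehyde reductase Dhrs3 went from 9.6, 13.8, 13.3 and 13.1 CPM to 4.47, 4.12, 4.45 and 5.37 CPM (-1.42 ± 0.15, adjusted p = 1.4e-04), and the receptor Rxrg from 1.9–2.43 to 0.263–0.564 CPM (-2.24 ± 0.25, adjusted p = 1.9e-04). The list had 11 calls, 8 higher, without SPONT replicate 2, and 5, 6, 6 and 5 without SPONT replicates 3 and 4 and 1% FBS replicates 2 and 3. Of 7 thyroid hormone genes tested 2 rose and none fell (median -0.15): Klf9, a hormone-induced transcription factor, from 9.71–14 to 19.1–25 CPM (0.96 ± 0.14, adjusted p = 0.0011), and the corepressor Hr from 16.5–22.5 to 29.3–36.4 CPM (0.83 ± 0.12, adjusted p = 0.0012). There were 4 calls, 2 higher, without SPONT replicate 2. Of 16 glucocorticoid response genes 4 rose, 1 fell and 11 did not pass (median 0.25; 6 calls, 5 higher, without SPONT replicate 2), and apart from Lcn2 those that rose were metallothioneins, which bind zinc and copper and respond to metals as well. Mt3, the form of brain, was at 691, 854, 654 and 602 CPM in SPONT and 1576, 1534, 1623 and 2229 CPM in 1% FBS (1.32 ± 0.14, adjusted p = 1.6e-04), and Mt2 at 608, 597, 516 and 538 CPM and 1418, 1337, 1117 and 1560.0 CPM (1.28 ± 0.10, adjusted p = 2.9e-05). The glucocorticoid targets Fkbp5 and Tsc22d3 were among those that did not pass.

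Iron handling genes were called more often than most lists: of 16 tested 9 rose, none fell and 7 did not pass (median 0.83), with 8 calls without SPONT replicate 2 and 7 to 9 when any 1 library was left out. Cp, the copper ferroxidase ceruloplasmin, was at 47.9, 33.4, 52.8 and 53.2 CPM in SPONT and 215, 222, 138 and 211 CPM in 1% FBS, 4.24-fold higher (2.08 ± 0.17, adjusted p = 3.3e-05). Steap4, a metalloreductase, was at 5.56, 2.88, 2.82 and 2.53 CPM in SPONT and 28, 35, 19.4 and 12.4 CPM in 1% FBS (2.80 ± 0.34, adjusted p = 3.5e-04). With Lcn2 and Trf, the other members that rose were Steap1, the reductase Steap3 and 3 more. Those 3 were the ferritin heavy chain Fth1, the transferrin receptor Tfrc and the heme oxygenase Hmox1, by 0.56 to 0.71. Lcn2, Steap4 and Cp are also reactive astrocyte genes, so the 2 lists are not separate evidence.

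Glycolysis had 6 rises, no falls and 17 not passed of 23 (median 0.22; 8 calls, all higher, without SPONT replicate 2). It had 4 to 8 calls when any 1 library was left out. The platelet form of phosphofructokinase, Pfkp, rose from 9, 8.72, 5.94 and 5.99 CPM to 22.3, 34.1, 22.3 and 24.4 CPM (1.81 ± 0.19, adjusted p = 1.5e-04), the monocarboxylate transporter Slc16a1 from 101–152 to 205–243 CPM (0.99 ± 0.13, adjusted p = 4.9e-04) and the kinase Pdk1 from 8.23–12.1 to 17.5–20.2 CPM (0.89 ± 0.14, adjusted p = 0.0014). Tpi1, triosephosphate isomerase, rose by 0.62 ± 0.10 (adjusted p = 0.0019, and 0.011 without SPONT replicate 3). Of 22 ATF4 targets tested, genes that respond to amino acid shortage, none rose and 1 fell (median 0.22), the mTORC1 inhibitor Ddit4, from 173–199 to 113–129 CPM (-0.61 ± 0.08, adjusted p = 5.0e-04). That share of calls was 4.55%, against 8.78% over all genes tested. Atf4 itself was at 60.3, 173, 80.9 and 78.5 CPM in SPONT, where replicate 2 was high, and averaged 133 ± 52.9 CPM (SD, n = 4) in 1% FBS (adjusted p = 0.43, and 0.046 without SPONT replicate 2). The list had 4 calls, 3 higher, without SPONT replicate 2, and 1 to 4 when any 1 library was left out.

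The labelled cells were checked against markers of other cells. Pluripotency genes were nearly absent: 5 of 10 had at most 3 counts in every library, 3 of these none at all, and the list summed to 2.48–3.54 CPM in SPONT and 3.77–4.92 CPM in 1% FBS, made up mainly of Esrrb and Nanog. None of the 4 tested was called in edgeR (2 at an unadjusted p below 0.05, 1 in DESeq2, 1 without SPONT replicate 1). Microglial genes summed to 65.4–77.4 CPM in SPONT and 53.2–63 CPM in 1% FBS. The defining microglial genes Aif1, Cx3cr1, P2ry12 and Ptprc were at 0 to 0.104 CPM, so nearly all of that sum came from other genes of the list, and none of the 5 microglial genes tested was called in edgeR (1 at an unadjusted p below 0.05, 1 in DESeq2, 1 without SPONT replicate 1). Endothelial genes summed to 1.84–2.62 CPM in SPONT and 2.74–4.44 CPM in 1% FBS, and 1 of 4 tested rose, Flt1, from 0.221–0.43 to 0.725–1.38 CPM (1.73 ± 0.32, adjusted p = 0.0041; lost without SPONT replicates 3 or 4 or 1% FBS replicates 2, 3 or 4, up to 0.017), while Cdh5 and Pecam1 were at 0 to 0.0884 CPM.

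Fibroblast and mural cell markers summed to 397–547 CPM in SPONT and 403–517 CPM in 1% FBS, most of it from Pdgfra, Cspg4 and Notch3, which glial progenitors also express. Of 14 tested 3 rose, none fell and 11 did not pass (median 1.35): Col1a1, Fap and the potassium channel Kcnj8, the last from 2.3–3.89 to 7.38–14.3 CPM (1.85 ± 0.23, adjusted p = 3.4e-04). The fibroblast genes Dcn and Lum were at 0.386–0.469 and 0.166–0.56 CPM in SPONT and at 0.564–2.85 and 0.329–1.75 CPM in 1% FBS (adjusted p = 0.014 and 0.064), and both were highest in 1% FBS replicate 1, which was also highest for Acta2, Tagln, Ogn, Lox, Postn, Col1a1 and Col15a1. The part of such cells in the contractile and matrix results was not tested. There were 5 calls, 3 higher, without SPONT replicate 2, 1 without SPONT replicate 3 or 1% FBS replicate 2, and 5 without 1% FBS replicate 4. Schwann and neural crest markers had 2 rises, Pmp22 (17–25.8 to 56–62.7 CPM, 1.55 ± 0.13, adjusted p = 4.3e-05), a myelin protein made by many cells, and Egr2, and 1 fall, Sox10, of 11 tested (median -0.02; 2 calls without SPONT replicate 2, 1 without SPONT replicate 3 or 1% FBS replicate 3). Their defining factors Foxd3 and Tfap2b had no count in any library.

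To place these changes, 1% FBS was also compared with 5% FBS and with CNTF, each with 4 libraries cultured for the same 4 days. Both comparisons share the 1% FBS libraries with the main one, so their values are set side by side only. Between 5% and 1% FBS 4730 of 15226 genes (31.1%) were called, 2646 higher (17.4%) and 2084 lower (13.7%) in 5% FBS. Between 1% FBS and CNTF 6234 of 14979 genes (41.6%) were called, 3398 higher (22.7%) and 2836 lower (18.9%) in 1% FBS.

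Several genes that rose at 1% FBS, though not all of their groups, were higher still at 5%. Acta2 averaged 1.52 ± 0.439 CPM (SD, n = 4 here and in the values that follow) in SPONT, 20.7 ± 13.7 CPM in 1% FBS and 248 CPM in 5% FBS, then 802 CPM at 10% and 2503 CPM at 20% (5% minus 1%: log2 3.58, adjusted p = 8.8e-05). Ccn2 averaged 1.27, 22.3, 436, 648 and 954 CPM over the same 5 conditions (4.29, adjusted p = 1.0e-05), and Cp 46.8, 197, 1638, 2733 and 2912 CPM (3.06, adjusted p = 2.4e-06). Col1a1 averaged 4.65, 29.7 and 136 CPM in SPONT, 1% and 5% FBS, but that last step did not pass (2.20, adjusted p = 0.011). Nor did those of the YAP target Nt5e, at 0.572, 1.81 and 1.08 CPM (-0.75, adjusted p = 0.029), and of Eln, at 58.8, 249.9 and 128 CPM (-0.97, adjusted p = 0.052). Of the BMP genes, Id3 averaged 125, 237 and 342 CPM (0.52, adjusted p = 1.9e-04) and Smad6 2.35, 7.51 and 37.1 CPM (2.30, adjusted p = 1.1e-06). Snai2, not called at 1%, was higher at 5% (0.412 to 4.65 CPM, 3.48, adjusted p = 1.9e-05), as were Fn1 (148 to 775 CPM, 2.38, adjusted p = 1.3e-06) and Srf (45.4 to 83.8 CPM, 0.88, adjusted p = 2.4e-04).

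Gfap, Syt12 and Hopx were not called between 1% and 5% FBS. Gfap averaged 7879.9 ± 1815 CPM in SPONT, 18588 ± 2596 CPM in 1% FBS and 15523 CPM in 5% FBS, a last step that did not pass (-0.27, adjusted p = 0.26), and 9388 and 4017 CPM at 10% and 20%. Syt12 averaged 2.05, 22.9 and 25.2 CPM in SPONT, 1% and 5% FBS (0.13, adjusted p = 0.45), and Hopx 42.1, 155 and 208 CPM (0.42, adjusted p = 0.14). Cd34 fell back, from 18.4 ± 5.46 CPM at 1% to 3.79 CPM at 5% (-2.29, adjusted p = 2.5e-05), and Aqp4 from 145 to 51.9 CPM (-1.49, adjusted p = 0.0078). Several genes that fell at 1% were higher at 5% FBS than at 1%: Dkk3 averaged 25.1, 8.66 and 83.1 CPM in SPONT, 1% and 5% FBS (5% minus 1%: 3.26, adjusted p = 1.1e-06), St8sia2 30.2, 9.94 and 55.6 CPM (2.47, adjusted p = 1.1e-05), Dhrs3 12.4, 4.6 and 22.1 CPM (2.26, adjusted p = 3.4e-04), Rbfox3 23.3, 9.64 and 21 CPM (1.12, adjusted p = 3.4e-04), Dll4 2.51, 0.751 and 2.06 CPM (1.45, adjusted p = 0.0023), Gata3 11.3, 3.04 and 5.56 CPM (0.87, adjusted p = 0.0045) and Cdh4 89.9, 53.6 and 95.3 CPM (0.82, adjusted p = 2.4e-04). The genes of the oligodendrocyte lineage fell further, Olig2 from 639 to 272 CPM (-1.24, adjusted p = 8.0e-04) and Sox10 from 13.1 to 2.33 CPM (-2.51, adjusted p = 0.0025), as did Dcx, from 8.92 to 0.71 CPM (-3.68, adjusted p = 2.5e-04).

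**Figure D5:**
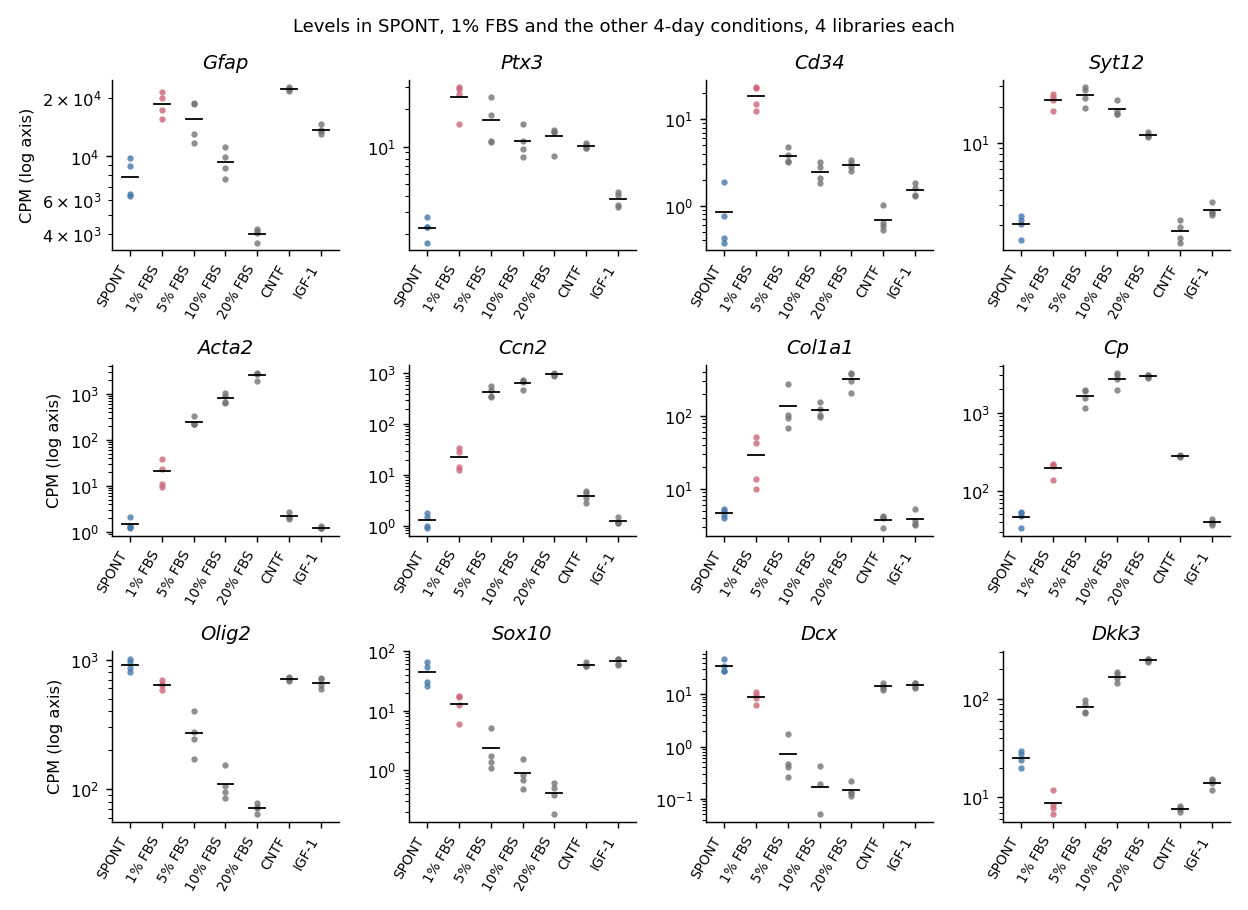
CPM (log axis) of 12 genes in SPONT (blue), 1% FBS (red) and 5 other 4-day conditions (grey); points are libraries and black lines are means of 4. Acta2, Ccn2 and Cp climb with each serum step to 20%, Ptx3 and Cd34 are highest in 1% FBS, and Dkk3 is lower in 1% FBS than in either SPONT or 5% FBS.

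Against CNTF, a cytokine that signals through STAT3, values are given for only some of the genes above. They do not show what share of those genes differed, and 41.6% of all genes tested were called. Gfap averaged 22084 CPM in CNTF (1% FBS minus CNTF: log2 -0.24 ± 0.09 SE, adjusted p = 0.044), Aqp4 125 CPM (0.23, adjusted p = 0.28), Rassf4 26 CPM (-0.22, adjusted p = 0.47) and Lcn2 60.3 CPM (-0.59, adjusted p = 0.11), none of which passed. Others were higher in 1% FBS. Cd34 averaged 0.69 CPM in CNTF (4.74, adjusted p = 9.6e-09), Syt12 1.79 CPM (3.68, adjusted p = 9.0e-10), Tgm1 0.481 CPM (3.34, adjusted p = 7.9e-07), Acta2 2.27 CPM (3.20, adjusted p = 1.6e-05), Aldh1a1 29.7 CPM (2.30, adjusted p = 3.0e-09) and Acsbg1 92.7 CPM (1.95, adjusted p = 3.8e-08). Lower in 1% FBS than in CNTF were S1pr3, at 727 CPM in CNTF (-2.27, adjusted p = 6.3e-07), Vim, at 5771 CPM (-1.42, adjusted p = 5.7e-09), Cdkn1c, at 66.9 CPM (-1.36, adjusted p = 3.6e-09), and Sox10, at 58.2 CPM (-2.14, adjusted p = 9.5e-06).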

How the data were processed

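RNA was pulled down with the HA-tagged ribosomes and sequenced in 4 libraries each of SPONT, 1% FBS, 5% FBS and CNTF. In Galaxy, the authors trimmed reads with Trimmomatic, used HISAT2 for alignment to mm10 and featureCounts for counting per Entrez gene, at default settings, and deposited the raw counts used here, 1 library per file. Most low counts were even numbers, as when both mates of a pair are counted, so counts are not independent molecules. Reads of overlapping, antisense or near-identical genes cannot be told apart.

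Genes were filtered with filterByExpr (minimum count 10), scaled by TMM and tested with edgeR 4.0.16 in R 4.3.3 (quasi-likelihood test, Benjamini-Hochberg adjustment, adjusted p below 0.01), using only the groups compared. CPM are counts divided by the library total and scaled to a common total, without TMM. The SE was derived from the fold change and its F statistic. On counts simulated for 1% FBS against SPONT, 161 of 200 changed genes were recovered with 2 false calls among 14812 genes. Whether these figures hold for the libraries themselves, where SPONT replicate 2 stood apart and the median called fall was -0.64 log2, was not tested.

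Genes were named by rule: the 12 largest called rises and falls of at least 10 CPM with groups that do not overlap, up to 4 called members per list of at least 1 CPM, and 19 genes that define a list. Some genes that the rule names, 1 of the 12 largest falls included, are not reported here. Genes named outside the rule were chosen after their values were seen. The members and lists were chosen with earlier results of these data known. Alternatives were DESeq2 1.42.0, other scalings and filters, a replicate block, a fit of all 8 groups, a threshold of 0.05 and leaving out each library.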

Additional observations from a re-analysis of the deposited data

Results flagged for a closer look

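Among 228 groups of 4 libraries, for the 114 genes named by rule, 22 had 1 library far from the other 3 by Dixon's test. Chance gives such a gap in about 1 group in 20. The libraries standing apart were SPONT replicate 2 in 6 groups, SPONT replicate 1 and 1% FBS replicate 4 in 5 each, 1% FBS replicate 1 in 3, 1% FBS replicate 3 in 2 and SPONT replicate 4 in 1.

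SPONT replicate 2 was the high library for Acta2 (2.17 CPM against 1.22 to 1.39 in the other 3), Fdps (167 against 131 to 132) and Dlk1 (1.69 against 1.38 to 1.41). It was the low library for Nid2 (21.4 against 28.4 to 29.5), Cdh4 (58.8 against 96.6 to 102) and Il17rd (23.3 against 42.2 to 44.1). SPONT replicate 1 was high for Fam107a (1.3 against 0.563 to 0.636), Cavin1 (82.8 against 67.3 to 69), Steap4 (5.56 against 2.53 to 2.88), Slc16a1 (152 against 101 to 106) and Aqp4 (99.3 against 54 to 55.3), and SPONT replicate 4 for Lox (0.47 against 0.195 to 0.241).

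In 1% FBS, replicate 1 was high for Col15a1 (58.5 CPM against 13.2 to 17.4), Lama4 (2.63 against 1.14 to 1.36) and Snai1 (5.35 against 2.4 to 2.89). Replicate 4 was high for Gsg1l (7.12 against 5 to 5.31), Dapk2 (7.17 against 3.49 to 4.01), Jag1 (8.4 against 6.63 to 6.71) and Mt3 (2229 against 1534 to 1623) and low for Tgm1 (2.49 against 5.36 to 5.78). Replicate 3 was low for Cyp26b1 (2.29 against 2.83 to 2.87) and Cp (138 against 211 to 222).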

How the results depend on the processing

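The 1312 calls between 1% FBS and SPONT became 2555 with DESeq2 (1387 higher, 1168 lower), 3317 with all 8 groups in 1 fit (1783 higher, 1534 lower) and 2858 at a threshold of 0.05, and 628 to 1975 when 1 library was left out. Other scalings gave 1280 to 1317 and other filters 1264 and 1332. No called gene changed sign under any alternative, which was hardly possible for the 1302 whose groups did not overlap. The cause of these differences was not tested. Of the 102 named genes called, 71 were called in all 8 fits that left out 1 library, 102 with DESeq2 and 100 with library size scaling. Leaving out 1 library gave 3587 to 5152 calls between 5% and 1% FBS and 5104 to 6835 between 1% FBS and CNTF.

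With the replicate number as a block there were 833 calls, 791 of them among the 1312, and 88 of the 102 named genes were called. Deviations of same-numbered SPONT and 1% FBS libraries correlated at 0.2553, -0.1951, -0.0713 and 0.2699, so the numbers were not taken to pair the libraries.

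With 4 libraries a group, changes in rare genes rest on few counts, and levels near 3 counts a library give no reliable fold.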
